A study of Mus musculus with 7 samples.

Results

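Brca1 and the proteins that work with it in DNA repair were followed through RNA sequencing of mouse spleen as 10 genes chosen for their known roles: Brca1, Bard1, Brip1, Palb2, Brca2, Uimc1, Fam175a, Brcc3, Rnf8 and Rnf168. They were taken by symbol from the 24062 genes of the deposited tables, and all 10 were present and passed the filter on low counts. The mutant group held 3 enlarged spleens of genotype Vav1-iCre;Brca1F22-24/F22-24, and the wild-type group held 4 C57BL6 spleens, all from mice of 2 to 3 months. Vav1-iCre is a Cre recombinase driven by the Vav1 promoter, which is active in blood cells from the stem cell on, and other cells of the spleen may keep the unrecombined allele. Cre, the altered Brca1 allele and the enlarged spleen occur only in the mutant group, and a strain is named only for the wild type, so these cannot be told apart. Replicates are separate spleens by their labels, and the tests weigh the difference between groups against the spread between spleens.

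BRCA1 pairs with BARD1 through their RING domains to form a ubiquitin ligase, and its BRCT repeats bind several partners in separate complexes. At a broken chromosome RNF8 and RNF168 add ubiquitin to chromatin, and the A complex of RAP80 (Uimc1), Abraxas (Fam175a) and the deubiquitinase BRCC36 (Brcc3) brings BRCA1 to those ubiquitin chains. BRIP1 is a helicase that binds the BRCT repeats, and PALB2 bridges BRCA1 to BRCA2, which acts on single-stranded DNA in homologous recombination. In blood-forming tissue this repair is used mainly in S and G2 phase, when a sister chromatid is at hand.

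Libraries held 30660980 to 51680976 counts in mutant spleens and 26889712 to 63612532 in wild-type spleens, and levels are given as CPM (counts scaled to the size of the library, with edgeR's TMM factors). Markers of blood cell types differed between the groups. The 12 immature T-cell markers summed to 3185 to 5375 CPM in mutant and 659 to 891 CPM in wild-type spleens, and 11 of them were higher. Cd4 went the other way, at 59.2 to 123 CPM in mutant and 128 to 185 CPM in wild-type spleens. It did not pass (log2 fold change -0.70, adjusted p = 0.0506, edgeR). Rag1 and Ptcra were at most 1.37 and 0.620 CPM in wild-type spleens, where Tcf7 stood at 178 to 239 CPM. The 10 B-cell markers summed to 30.3 to 233 CPM in mutant and 4089 to 5497 CPM in wild-type spleens, and all 10 were lower. Of the 8 myeloid markers 7 were lower, at 130 to 593 CPM in mutant and 1870 to 2399 CPM in wild-type spleens, and 4 of 5 NK-cell markers were lower. No defining marker was at 0 in all spleens of a group. In bulk tissue, a smaller share of cells of a type and less RNA per cell cannot be told apart. CPM is relative to the whole library and gives no number of cells.

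The promoters of Brca1, Bard1, Brip1 and Brca2 are shown because these 4 genes varied most between wild-type spleens. The sequences are RefSeq windows of 300 bases on build GRCm38.p6, from 250 bases before to 50 bases after the start of the gene, read 5′ to 3′ on the gene's strand. They lie at chr11:101551906-101552205 (minus strand, Brca1), chr1:71102923-71103222 (minus strand, Bard1), chr11:86201144-86201443 (minus strand, Brip1) and chr5:150522371-150522670 (plus strand, Brca2). Capitals mark matches on either strand to CCAAT (the box bound by NF-Y), TTTGAA (the CHR element of genes active in G2 and M phase) and TTTCCCGC or TTTGGCGC (E2F sites).
Brca1: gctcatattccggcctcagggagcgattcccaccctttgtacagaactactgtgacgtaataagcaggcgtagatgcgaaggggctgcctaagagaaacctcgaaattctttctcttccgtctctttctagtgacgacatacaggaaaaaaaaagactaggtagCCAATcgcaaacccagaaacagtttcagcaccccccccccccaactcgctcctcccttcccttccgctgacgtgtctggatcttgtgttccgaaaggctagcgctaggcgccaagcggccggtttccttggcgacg
Bard1: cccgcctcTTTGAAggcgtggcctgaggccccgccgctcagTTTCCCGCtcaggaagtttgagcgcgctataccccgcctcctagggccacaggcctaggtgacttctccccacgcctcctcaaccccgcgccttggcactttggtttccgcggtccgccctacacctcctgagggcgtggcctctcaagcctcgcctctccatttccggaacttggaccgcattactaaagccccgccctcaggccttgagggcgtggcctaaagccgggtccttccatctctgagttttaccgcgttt
Brip1: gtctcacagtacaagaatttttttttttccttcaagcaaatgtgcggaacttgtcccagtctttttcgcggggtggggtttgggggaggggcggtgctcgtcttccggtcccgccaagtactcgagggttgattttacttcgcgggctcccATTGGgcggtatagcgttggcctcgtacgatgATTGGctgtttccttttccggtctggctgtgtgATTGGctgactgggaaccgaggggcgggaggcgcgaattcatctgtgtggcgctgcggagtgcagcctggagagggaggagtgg
Brca2: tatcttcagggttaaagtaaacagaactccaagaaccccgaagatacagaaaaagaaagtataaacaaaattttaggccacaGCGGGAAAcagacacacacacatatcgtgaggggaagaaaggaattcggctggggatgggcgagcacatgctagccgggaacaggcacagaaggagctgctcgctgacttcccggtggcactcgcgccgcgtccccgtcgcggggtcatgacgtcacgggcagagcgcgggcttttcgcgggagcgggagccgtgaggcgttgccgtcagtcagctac

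CCAAT was found in 6 of the 10 promoters and in 37.4% of all 32851 windows of the same length. TTTGAA was found in 3 of the 10 and in 17.9% of all windows, and an E2F site in 2 of the 10 and in 1.56% of all windows. Counted with the first base of the gene as 1, Brca1 held CCAAT at -86. Brip1 held CCAAT on the other strand, printed as ATTGG, at -99, -67 and -34. The E2F matches stood at -209 in Bard1 and, on the other strand, at -168 in Brca2. Bard1 also held TTTGAA at -242, and in Rnf8 a CCAAT and a TTTGAA match overlapped. These are matches of letters and no measurement of binding.

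Against wild type, 6 of the 10 genes were higher in mutant spleens, with Brip1, Bard1 and Fam175a changed at least 2-fold, and 0 were lower (edgeR's quasi-likelihood test, Benjamini-Hochberg adjusted p under 0.05). Across the 15188 genes tested, 28.5% were called higher and 28.9% lower. At an unadjusted p under 0.05 edgeR gave 8 higher and 0 lower, DESeq2 called 8 higher and 0 lower, and limma-voom 7 higher and 0 lower. The median log2 fold change was 0.81 over the 10 genes and -0.02 over all genes tested. In 7 genes every mutant spleen stood above every wild-type spleen, which held for 29.2% of all genes tested. Scaled by library size alone the median was 0.57 over the 10 genes and -0.26 over all genes tested, and Uimc1 was then called lower at -0.49 (adjusted p = 0.0171, edgeR).

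**Figure D1:**
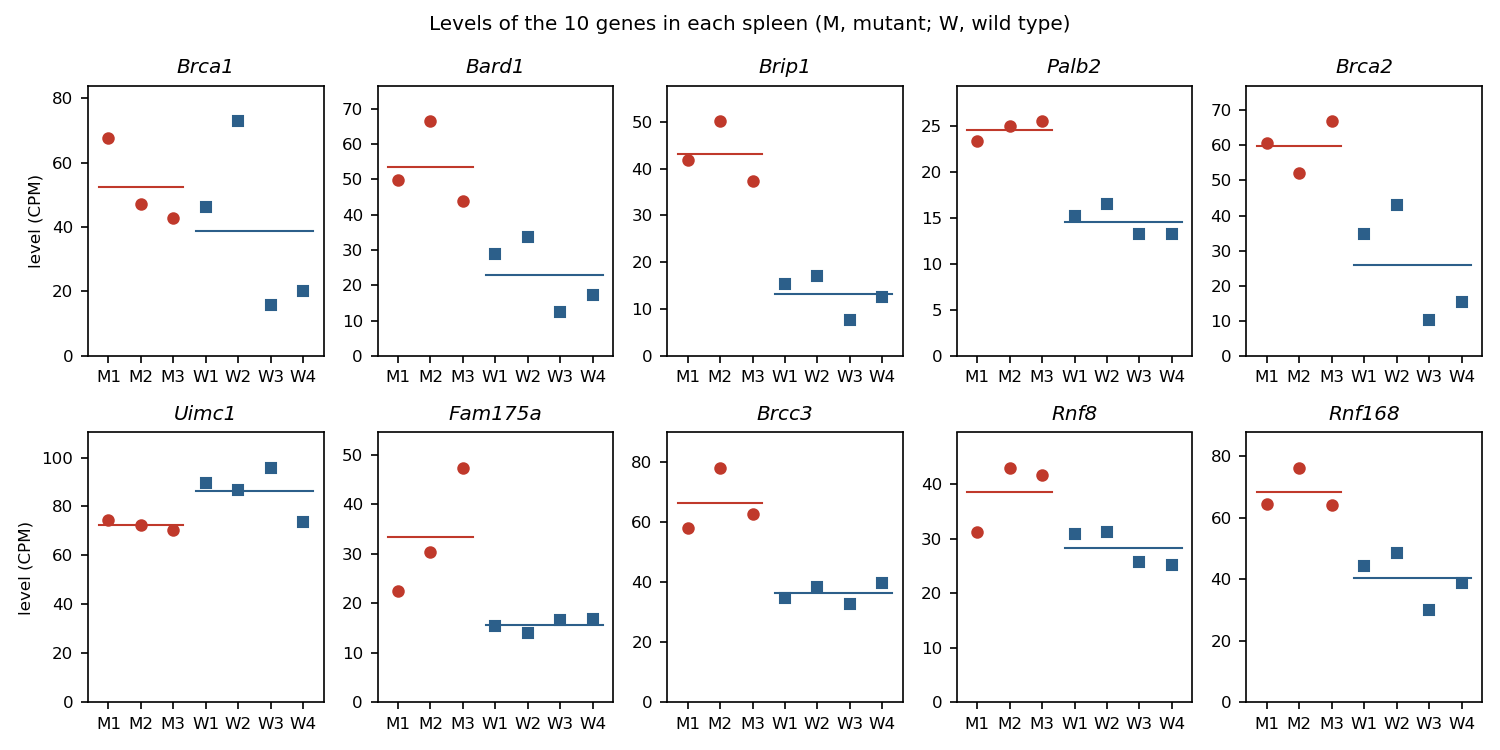
Level of each of the 10 genes (CPM, linear axes from 0) in mutant spleens M1 to M3 (circles) and wild-type spleens W1 to W4 (squares), with lines at the group means. Brca1 overlaps between the groups and spans 15.7 to 72.8 CPM among wild-type spleens, while Brip1, Palb2 and Brcc3 stand apart in every spleen.

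Brca1, the gene altered in the mutant (chromosome 11, 101488764 to 101551955, minus strand, mm10), had 67.6, 47.1 and 42.7 CPM in mutant spleens 1 to 3, against 46.2, 72.8, 15.7 and 20.2 CPM in wild-type spleens 1 to 4. The highest and the lowest spleens were both wild type, so the groups overlapped fully. The log2 fold change was 0.44 (SE 0.51, adjusted p = 0.490, edgeR; range 0.0129 to 0.842 over the alternatives). The result turned on which wild-type spleens were used. Without wild-type 1 and 2 it was 1.55 (adjusted p = 0.0129, edgeR), and without wild-type 3 and 4 it was -0.087 (adjusted p = 0.842, edgeR), both chosen after the values were seen. With single libraries left out, the lowest value was 0.17 (wild-type 3 omitted) and the highest 0.94 (wild-type 2 omitted), with 0.22 when wild-type 4 and 0.29 when mutant 1 was omitted.

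The RefSeq-matched Brca1 transcript in GENCODE has 23 exons and 6572 bases, of which the last 3 exons make up 1284 bases, or 19.5%. The labels name exons 22 to 24, a numbering that does not map directly onto this transcript. Counts were summed over the whole gene, so the level above checks neither the loss of those exons nor the genotype. Were those exons lost, their reads would be missing from mutant counts alone. No Brca1 level or ratio given here is corrected for this, and its size was not tested.

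Bard1, which forms the ligase with Brca1 (chromosome 1, 71027535 to 71102972, minus strand), had 49.8, 66.4 and 43.8 CPM in mutant spleens, against 28.9, 33.5, 12.5 and 17.2 CPM in wild-type spleens. Every mutant spleen was above every wild-type spleen, and the log2 fold change was 1.21 (SE 0.35, adjusted p = 0.0187, edgeR). The call was lost without mutant 2 (0.99, adjusted p = 0.0847, edgeR) and without wild-type 4 (1.09, adjusted p = 0.0530, edgeR). Within a library there were 0.737, 1.41 and 1.03 Bard1 counts per Brca1 count in mutant spleens, against 0.625, 0.461, 0.797 and 0.850 in wild-type spleens. The difference in mean log2 ratio was 0.62, and the groups overlapped (two-sided exact permutation test over 35 assignments, p = 0.143; adjusted over 4 ratios, 0.190; smallest p possible 0.0286).

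Brip1, the helicase (chromosome 11, 86058136 to 86201193, minus strand), showed the largest fold change of the 10 genes. It had 41.7, 50.1 and 37.3 CPM in mutant spleens, against 15.3, 17.1, 7.74 and 12.7 CPM in wild-type spleens. The lowest mutant spleen stood well above the highest wild-type spleen. The log2 fold change was 1.71 (SE 0.27, adjusted p = 0.00154, edgeR), and the call held in all 17 alternatives.

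Palb2, the bridge to Brca2 (chromosome 7, 122107262 to 122132946, minus strand), had 23.3, 25.0 and 25.5 CPM in mutant spleens, against 15.3, 16.5, 13.2 and 13.2 CPM in wild-type spleens. Both groups were tight and did not overlap, and the log2 fold change was 0.76 (SE 0.16, adjusted p = 0.00445, edgeR). The call was lost with replicate number as a block (0.72, adjusted p = 0.0572, edgeR). Brca2, which acts in homologous recombination (chromosome 5, 150522621 to 150570146, plus strand), had 60.7, 52.0 and 66.9 CPM in mutant spleens, against 34.8, 43.0, 10.3 and 15.3 CPM in wild-type spleens. All mutant spleens were above all wild-type spleens, but the wild-type spleens spread 4.18-fold. At a log2 fold change of 1.21 with an SE of 0.46, Brca2 did not pass (adjusted p = 0.0544, edgeR).

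Brca2 passed under 8 of 17 alternatives, among them RLE size factors (1.26, adjusted p = 0.0458, edgeR), DESeq2 (1.26, adjusted p = 0.0199) and limma-voom (1.57, adjusted p = 0.0146), with adjusted p over all alternatives from 0.00559 to 0.129. Without wild-type 2 it was 1.58 (adjusted p = 0.0229, edgeR), without wild-type 1 and 2 it was 2.22 (adjusted p = 0.00559, edgeR), and without wild-type 3 and 4 it was 0.72 (adjusted p = 0.0433, edgeR). Palb2 counts per Brca2 count were 0.384, 0.481 and 0.382 in mutant spleens, against 0.439, 0.383, 1.28 and 0.864 in wild-type spleens. The high ratios belonged to wild-type 3 and 4, the spleens with least Brca2. The difference in mean log2 ratio was -0.67 (two-sided exact permutation test, p = 0.314; adjusted over 4 ratios, 0.314).

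Of the 3 genes of the A complex, Fam175a and Brcc3 were higher and Uimc1 was not called. Uimc1, which reads ubiquitin chains (chromosome 13, 55027880 to 55100295, minus strand), had 74.3, 72.6 and 70.5 CPM in mutant spleens, against 89.6, 86.6, 95.8 and 73.5 CPM in wild-type spleens. Mutant 2 and 3 lay below all wild-type spleens and mutant 1 above the lowest of them, and the log2 fold change, -0.25 with an SE of 0.13, did not pass (adjusted p = 0.126, edgeR). Fam175a, the scaffold, now named Abraxas1 (chromosome 5, 100804802 to 100820935, minus strand), had 22.4, 30.5 and 47.4 CPM in mutant spleens, against 15.4, 13.9, 16.6 and 16.7 CPM in wild-type spleens. It was the gene with the widest spread among mutant spleens, 2.12-fold, and among the tightest in wild type, 1.20-fold. The log2 fold change was 1.09 (SE 0.25, adjusted p = 0.00765, edgeR), and the call was lost without wild-type 1 and 2 (1.00, adjusted p = 0.0750, edgeR).

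Brcc3, the deubiquitinase (chromosome X, 75416628 to 75455701, plus strand), had 58.1, 78.0 and 62.5 CPM in mutant spleens, against 34.7, 38.5, 32.6 and 39.6 CPM in wild-type spleens. The groups did not overlap, and the log2 fold change was 0.87 (SE 0.15, adjusted p = 0.00216, edgeR), a call that held in all 17 alternatives. Brcc3 is X-linked and the labels give no sex. Xist stood at 1.59 CPM in mutant 1 and at 3.39 CPM in wild-type 3, and at 1668 to 2196 CPM in the other 5 spleens. The Y-linked Ddx3y was 126 and 144 CPM in mutant 1 and wild-type 3, and at most 0.148 CPM in the other 5. Both groups thus held both patterns. Brcc3 was 58.1 and 32.6 CPM in the 2 spleens with low Xist, the lowest value of each group. Fam175a counts per Uimc1 count were 0.301, 0.419 and 0.672 in mutant spleens, against 0.172, 0.161, 0.173 and 0.228 in wild-type spleens. The ratio was higher in all 3 mutant spleens, by 1.28 in mean log2 ratio, at the smallest p the design allows (two-sided exact permutation test, p = 0.0286; adjusted over 4 ratios, 0.114, which did not pass).

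Of the ligases that act upstream, Rnf168, which spreads the ubiquitin mark on histones (chromosome 16, 32277461 to 32301439, plus strand), had 64.6, 76.2 and 63.98 CPM in mutant spleens, against 44.4, 48.5, 30.2 and 38.8 CPM in wild-type spleens. The groups did not overlap, and the log2 fold change was 0.75 (SE 0.18, adjusted p = 0.00922, edgeR), a call that held in all 17 alternatives. Rnf8, which acts before it (chromosome 17, 29614831 to 29641659, plus strand), had 31.2, 43.0 and 41.6 CPM in mutant spleens, against 30.8, 31.3, 25.6 and 25.2 CPM in wild-type spleens. Only mutant 1 lay within the wild-type range. The log2 fold change, 0.45 with an SE of 0.17, did not pass (adjusted p = 0.0514, edgeR; range 0.00747 to 0.296 over the alternatives), and without mutant 1 it was 0.67 (adjusted p = 0.00747, edgeR).

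Rnf168 counts per Rnf8 count were 2.07, 1.77 and 1.54 in mutant spleens, against 1.44, 1.55, 1.18 and 1.54 in wild-type spleens. The groups overlapped, with a difference in mean log2 ratio of 0.33 (two-sided exact permutation test, p = 0.0571; adjusted over 4 ratios, 0.114).

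Per kilobase of exon, which allows levels to be compared between genes, Uimc1 led in both groups at 24.7 ± 0.662 CPM per kilobase in mutant and 29.4 ± 3.20 in wild-type spleens (SD, n = 3 and 4). In mutant spleens it was followed by Fam175a (15.6), Brcc3 (15.4), Rnf168 (15.3), Bard1 (9.42), Brca1 (7.98), Rnf8 (7.14), Palb2 (6.23), Brip1 (6.21) and Brca2 (5.58). In wild-type spleens it was followed by Rnf168 (9.07), Brcc3 (8.43), Fam175a (7.32), Brca1 (5.89), Rnf8 (5.22), Bard1 (4.07), Palb2 (3.68), Brca2 (2.41) and Brip1 (1.90). The ranges over the spleens of a group did not overlap between Uimc1 and the next gene, in both groups, and between Rnf168 and Bard1 in mutant spleens. The ranges of all other neighbours in these orders overlapped. Exonic length was taken from RefSeq-matched transcripts of GENCODE M21, not from the authors' annotation.

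**Figure D2:**
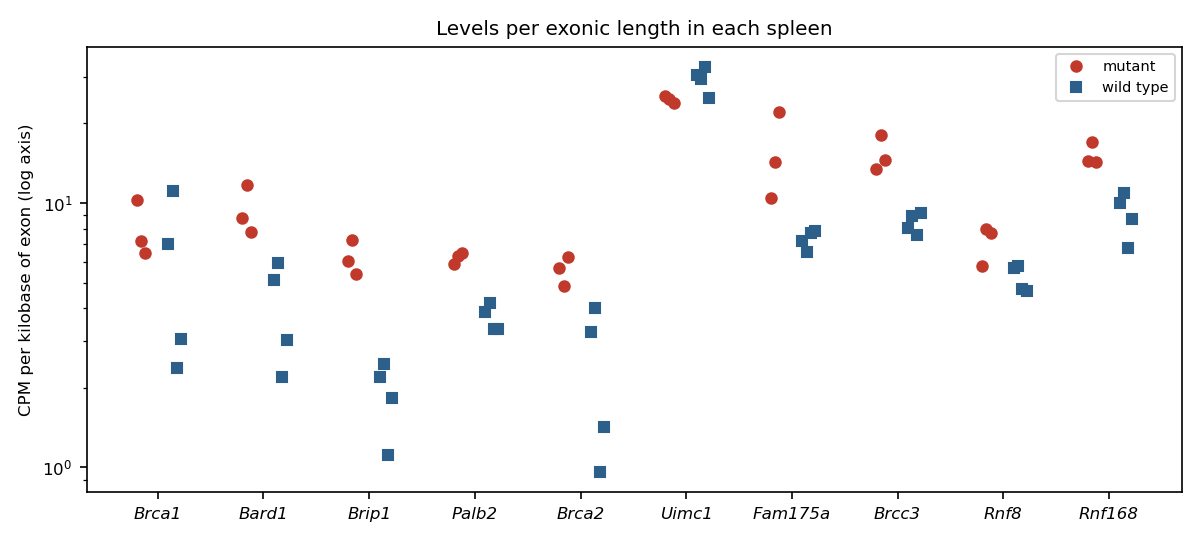
Level per exonic length (CPM per kilobase, log axis) of the 10 genes in mutant (circles) and wild-type (squares) spleens, 1 point per spleen. Uimc1 is highest in every spleen, and Brip1 is the lowest by mean in wild type at 1.90.

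Other genes of the same pathway were examined as 34 genes in 6 groups, of which 33 passed the filter (L3mbtl1 did not). Of these 33 genes 21 were higher, 1 was lower and 11 were not called, with a median log2 fold change of 0.80 (edgeR, adjusted p under 0.05), where 28.5% of all genes tested were higher and 28.9% lower. All 4 genes of the C complex and the MRN nuclease were higher, led by Nbn (1.12, SE 0.13) and Mre11a (1.04, SE 0.14), which sense and process broken ends. In the Palb2-Brca2 arm 9 of 11 were higher, with Xrcc2 (1.25, SE 0.18) and the small Brca2-binding protein Shfm1 (1.04, SE 0.17) the clearest by p. The 2 others did not pass. Topbp1, which binds Brip1 and Brca1 in the B complex, was higher by 1.504 (SE 0.18, adjusted p = 0.000557, edgeR).

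Around the A complex, Babam1 was higher by 0.77 (SE 0.12, adjusted p = 0.00162, edgeR), while Bre (0.50, SE 0.19) and Fam175b (-0.21, SE 0.13), the scaffold of the related BRISC complex, did not pass. In break ubiquitin signalling 5 of 10 tested genes were higher, and those with the smallest p were Ube2v2 (1.02, SE 0.15), a partner of the ubiquitin-conjugating enzyme Ube2n, and the deubiquitinase Usp3 (0.80, SE 0.14). Herc2, a ligase that assists Rnf8, was the 1 pathway gene called lower (2 pathway genes were lower at an unadjusted p under 0.05). It had 181, 127 and 115 CPM in mutant spleens, against 227, 229, 186 and 203 CPM in wild-type spleens, with a log2 fold change at -0.58 (SE 0.19, adjusted p = 0.0312, edgeR). Its call was lost without mutant 2 and without wild-type 1, 2 or 4, each left out alone. Trp53bp1, the other gene lower at an unadjusted p under 0.05, stood at -0.35 (SE 0.14, adjusted p = 0.0601, edgeR). In the same group Mdc1 (-0.26, SE 0.21), Atm (-0.08, SE 0.13) and Rnf169 (0.16, SE 0.21) did not pass either. Of 4 other Brca1-binding proteins only Bap1, a deubiquitinase, was higher (0.66, SE 0.15, adjusted p = 0.00641, edgeR), a share near that of all genes, and Nelfb, Brap and Brat1 lay between -0.14 and 0.10.

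**Figure D3:**
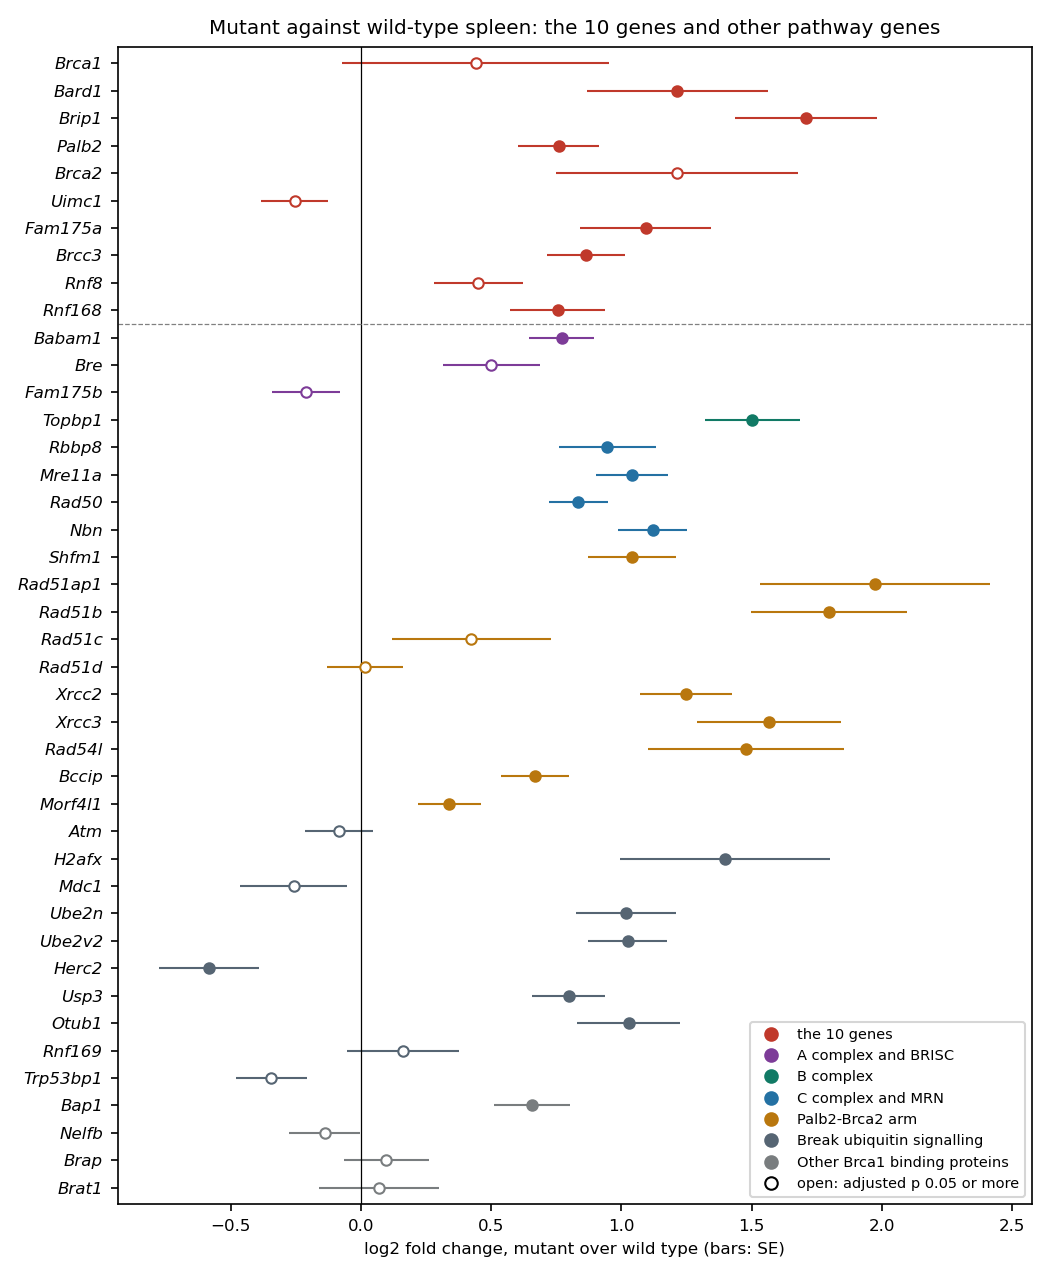
Log2 fold change, mutant over wild type, of the 10 genes (top) and the tested pathway genes reported here, by group, with bars of 1 SE from the edgeR fit; filled points passed an adjusted p under 0.05. Of the 10 genes 6 are filled, all to the right of 0, and Herc2 is the 1 filled point to the left.

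Wild-type spleens differed from each other mainly in Brca1 (4.65-fold from lowest to highest), Brca2 (4.18-fold), Bard1 (2.69-fold) and Brip1 (2.20-fold). The other 6 genes spread 1.20 to 1.61-fold. Marker lists of cell division and of erythroid cells moved with this spread. The 29 cell division genes (S, G2 and M phase) summed to 10844, 11594 and 10465 CPM in mutant spleens, against 4202, 6277, 1516 and 1884 CPM in wild-type spleens, so that wild-type 1 and 2 were above wild-type 3 and 4 as for Brca1. Of these 29 genes 22 were higher and 0 lower in mutant spleens, with a median log2 fold change of 1.87 (edgeR; 25 higher and 0 lower at an unadjusted p under 0.05, 27 and 0 by DESeq2 and by limma-voom).

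The 16 erythroid genes other than globins summed to 16704, 2485 and 3603 CPM in mutant spleens, against 6434, 13536, 1052 and 1152 CPM in wild-type spleens, and 0 were called in either direction by edgeR (also at an unadjusted p under 0.05), DESeq2 or limma-voom. The order of the erythroid sums was close to that of Brca1, with wild-type 2 and mutant 1 as the top pair and wild-type 3 and 4 as the bottom pair in both. The part of either list in the levels of the 10 genes was not tested.

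**Figure D4:**
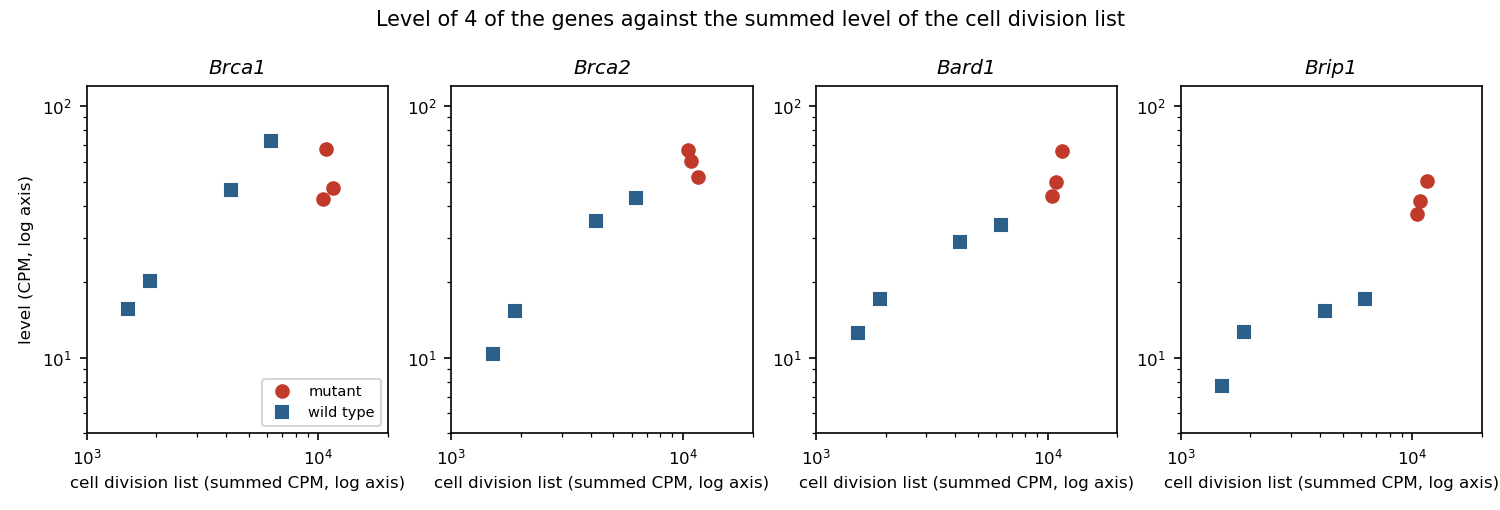
Level of Brca1, Brca2, Bard1 and Brip1 (CPM, log axis) against the summed level of the 29 cell division genes (CPM, log axis), with circles for mutant and squares for wild-type spleens. The mutant spleens lie at list sums of 10465 to 11594 CPM with less Brca1 than wild-type 2, and the order of the wild-type spleens by Brca1 is that by the list.

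Set against the cell division list, Brca1 was even among wild-type spleens and lower in mutant spleens. It had 6.23, 4.06 and 4.08 counts per 1000 counts of the list in mutant spleens, against 11.0, 11.6, 10.3 and 10.7 in wild-type spleens. Wild-type spleens, 4.65-fold apart in CPM, were thus 1.12-fold apart on this scale. The mean was 4.79 ± 1.25 in mutant and 10.9 ± 0.534 in wild-type spleens (SD, n = 3 and 4), a difference in mean log2 level of -1.22, and -1.42 to -1.11 with each library left out in turn. Against the median of the list in place of its sum the difference was -1.38. Taken against the 29 division genes 1 at a time, Brca1 was lower in every mutant than in every wild-type spleen for 28 and overlapped for 1. Most of these 29 genes were themselves higher in mutant spleens, and the same count was not made for other genes. This scale was chosen after the values were seen and carries no test.

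The list, the denominator of this scale, was itself higher in mutant spleens, and 64.8% of all 15188 genes tested stood lower in every mutant than in every wild-type spleen on it. Of the 10 genes 6 did so (Brca1, Palb2, Brca2, Uimc1, Rnf8 and Rnf168), 0 were above and 4 overlapped. Brca2, which also tracked the list in wild type, had 5.60, 4.48 and 6.39 counts per 1000 in mutant spleens, against 8.28, 6.85, 6.79 and 8.11 in wild-type spleens, or 0.731 of the wild-type mean, where Brca1 had 0.439. Uimc1 (0.193), Rnf8 (0.330), Palb2 (0.409) and Rnf168 (0.423) had lower ratios than Brca1. Brcc3 (0.423) did too, but it overlapped between the groups, as did Fam175a (0.479), Bard1 (0.654) and Brip1 (0.861). Of the 29 division genes, each against the sum of the other 28, 0 were lower without overlap, 7 were higher and 22 overlapped. Of the 34 pathway genes 13 were lower without overlap. Low values on this scale were not particular to Brca1. Among the 5 genes most like it in level, described further on, Ankle1 (0.456 of the wild-type mean), Mtfr1 (0.436) and E2f2 (0.410) were also lower in every mutant than in every wild-type spleen. Cdkn3 (0.638) and Alad (0.592) overlapped between the groups. These 5 genes were picked for following Brca1 over the same spleens, so their values on this scale are no independent check.

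**Figure D5:**
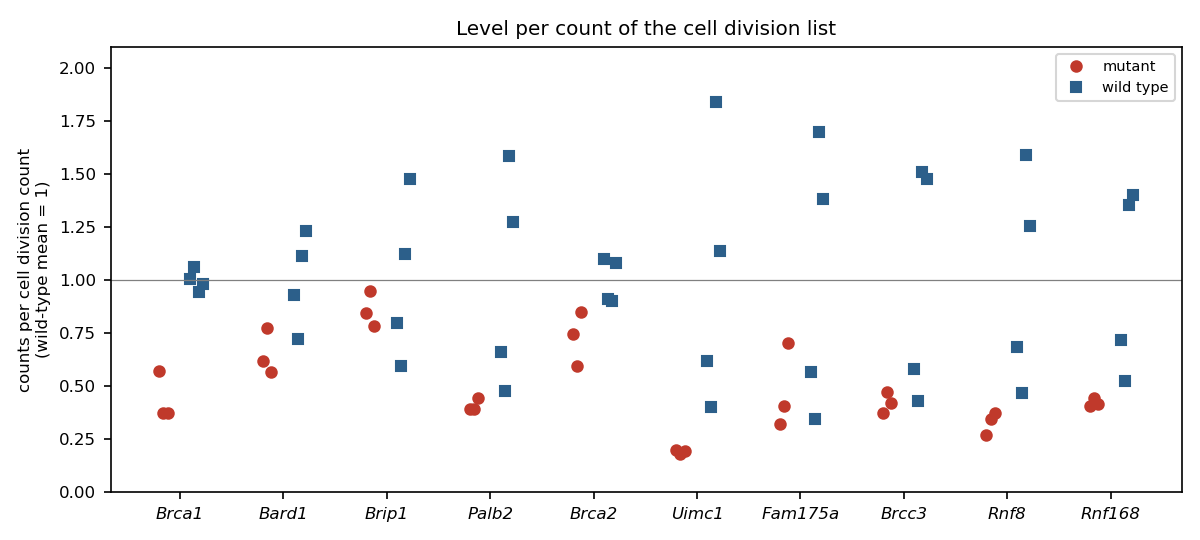
Counts of each of the 10 genes per count of the cell division list, divided by the wild-type mean (grey line at 1), in mutant (circles) and wild-type (squares) spleens. Wild-type points of Brca1 lie closest together, and its mutant points lie below all of them.

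The genes whose log2 level followed that of Brca1 most closely over the 7 spleens, among 11312 genes averaging 5 CPM or more, were Ankle1 (Pearson r = 0.998), Mtfr1 (0.987), E2f2 (0.985), Cdkn3 (0.983) and Alad (0.983). These correlations describe 7 libraries that share tissue, depth differences and group, and carry no test. Ankle1, which encodes a nuclease of blood-forming tissue, had 37.3, 24.2 and 21.6 CPM in mutant spleens, against 23.5, 39.5, 7.19 and 10.5 CPM in wild-type spleens. Alad encodes an enzyme of haem synthesis, E2f2 a transcription factor of the cell cycle, Mtfr1 a regulator of mitochondrial fission and Cdkn3 a phosphatase of the cell cycle. None of the 5 passed the test between the groups (log2 fold changes 0.27 to 0.81, adjusted p 0.341 to 0.727, edgeR). Among the 10 genes themselves, r with Brca1 was 0.89 for Brca2, 0.81 for Bard1, 0.73 for Rnf168 and 0.67 for Brip1, and 0.15 for Fam175a and -0.26 for Uimc1. Between Bard1, Brip1 and Rnf168 r was 0.96 to 0.99, and between Brip1 and Palb2 it was 0.97, over the same 7 spleens, a span that includes the difference between the groups.

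Of the 10 genes 3 start within 1000 bases of a gene on the opposite strand that is transcribed away from it. Nbr1, an autophagy receptor whose start lies 152 bases from that of Brca1, had 149, 97.7 and 92.9 CPM in mutant spleens, against 136, 169, 130 and 132 CPM in wild-type spleens. Nbr1 was highest in wild-type 2 and next in mutant 1, as Brca1 was, and close to even over wild-type 1, 3 and 4. Its log2 fold change was -0.32 (SE 0.20, adjusted p = 0.206, edgeR). Dctn5, a dynactin subunit 95 bases from Palb2, stood at 0.03 (SE 0.18, adjusted p = 0.903, edgeR), and Mtcp1, 85 bases from Brcc3, at -0.18 (SE 0.21, adjusted p = 0.502, edgeR). All 3 neighbours overlapped between the groups, whereas Palb2 and Brcc3 did not. The difference between a gene and its neighbour was not tested. This rule was chosen after the files were seen. In the deposited annotation no other gene's span overlapped one of the 10.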

How the data were processed

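Total RNA of whole spleens was sequenced as 3 mutant and 4 wild-type libraries. The submitters' processing notes name edgeR, featureCounts, Subread 1.4.6, TopHat2 2.0.12 and bcl2fastq 2.17.1.14, with build mm10. Their order and settings, and any use of strand, were not given in the sources used here. Raw gene counts were deposited by the authors, with a second deposited table of CPM that equalled the counts times 1 constant per library (largest relative deviation 9.84e-15). Deposited CPM columns sum to 849108 to 1164020. There were 4455 genes with no count. No pair of replicates agreed within sampling noise, and none of the 10 genes shared identical counts with another gene.

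Counts were fitted with edgeR 4.0.16 in R 4.3.3 (TMM, filterByExpr, quasi-likelihood, group only, all 7 libraries), with calls at a Benjamini-Hochberg adjusted p under 0.05 over 15188 genes. The SE is the log2 fold change over the square root of F. Scripts were tested on simulated counts. Correlations used log2 of CPM plus 0.5. Promoters are RefSeq's and were matched by symbol for 10 of 10 genes, 1 of them under its current symbol.

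Alternatives were RLE factors, library size alone, a filter of at least 10 counts in total, DESeq2 1.42.0, limma-voom (limma 3.58.1), limma on log2 of deposited CPM plus 1 or 0.1, a replicate block and each library left out. Leaving out wild-type 1 and 2, or 3 and 4, was added after the data were seen. The 10 genes and all lists were chosen with earlier results of these data known. Named by rule were the 10 genes, in each pathway group the called genes with the 2 smallest p and any that went against the group, and the 5 genes most like Brca1. Pathway genes that did not pass, Xist, other single marker genes and the neighbouring genes were named after their values were seen. The values of 1 pathway gene, which is part of the counts, are not reported here. The lowest count of any of the 10 genes in any library was 350. Counting error was not set against the spread of each gene. That spread was small for some, as for Uimc1 in mutant spleens (SD 2.68% of the mean).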

Additional observations from a re-analysis of the deposited data

How the results depend on the processing

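Brip1, Brcc3 and Rnf168 kept direction and call under all 17 alternatives. The number of the 10 genes called higher was 5 to 7 with each library left out in turn, 5 with the replicate block and 8 with RLE factors or DESeq2. Scaled by library size alone, 1 of the 10 genes (Uimc1) and 2 pathway genes were called lower, and 38.1% of all calls were higher, against 49.7% with TMM. With each library left out, 0 to 1 pathway genes were called lower, and 0 with the replicate block, without wild-type 1 and 2, or without wild-type 3 and 4. Without wild-type 3 and 4, 5430 genes were called in all, against 8724 from all 7 libraries, and Brca1 turned to -0.087 (adjusted p = 0.842, edgeR). Without wild-type 1 and 2, 5934 genes were called and Brca1 was 1.55 (adjusted p = 0.0129, edgeR). These settings have fewer samples, and no further cause was tested.

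Mutant and wild-type libraries share replicate numbers 1 to 3, and the deviations of same-numbered libraries from their group means correlated at 0.11, -0.22 and 0.13. These were not compared with differently numbered libraries, so they cannot exclude a pairing. With the replicate block 6090 genes were called, Brca1 was 0.46 (adjusted p = 0.427, edgeR), and Palb2 lost its call (0.72, adjusted p = 0.0572, edgeR). In none of the 4 ratios did leaving out a library turn the direction.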
